A study of Mus musculus with 4 samples.

Results

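The 10 genes described here encode inflammatory chemokines and cytokines, namely the CC chemokines Ccl2, Ccl3, Ccl4, Ccl5 and Ccl17, the CXC chemokines Cxcl2 and Cxcl10, and the cytokines Il1b, Il6 and Tnf. They were chosen by symbol. Probes that were not controls were matched by transcript accession to RefSeq, and each of the 10 genes had exactly 1 such probe, so the account covers 10 of 21154 named genes and 10 of 55681 probes. Chemokines are small secreted proteins that draw leukocytes towards a tissue through G protein-coupled receptors. In myeloid cells their genes, like those of interleukin-1 beta, interleukin-6 and tumour necrosis factor, are induced through Toll-like and cytokine receptors that activate NF-kappaB, AP-1 and interferon regulatory factors. BET proteins, which bind acetylated histones, help transcribe many such inducible genes, and in myeloproliferative neoplasms raised inflammatory cytokines are a well known feature.

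The data are 4 Agilent arrays for mouse transcripts, labelled in a single colour and lying on 1 slide, with 1 array for each group. Bone marrow of C57BL/6 strain mice with the JAK2V617F mutation, floxed Ezh2 and the inducible Cre-ERT2 recombinase was grafted into lethally irradiated wild-type hosts carrying CD45.1, Ezh2 was then deleted, and the mice received either JQ1, an inhibitor of BET bromodomains, or the solvent DMSO for 2 weeks. LSK cells (stem cells and multipotent progenitors, which carry Sca-1 and c-Kit but no lineage markers) and MEP cells (megakaryocyte and erythroid progenitors) were sorted from the marrow directly afterwards. The groups are thus LSK and MEP cells, each after DMSO or after JQ1, all of the genotype JAK2V617F/Ezh2Δ/Δ, so neither the mutation nor the deletion has a control among them. The dose of JQ1, the age and number of mice, the promoter of the recombinase and whether host cells were gated out are not given in the sources used here.

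A group of 1 array allows no test, so no p-value is given and no difference can be set against replicates. The unit of level is the log2 of the probe's signal relative to the 75th percentile of its array, and levels are compared only within a probe. Each difference has the comparison's median measured gene subtracted, because that gene itself differed by 0.063 log2 (JQ1 minus DMSO in LSK), 0.338 (JQ1 minus DMSO in MEP), -0.217 (MEP minus LSK under DMSO) and 0.07 (MEP minus LSK under JQ1). A gene was measured where its probe was well above background on both arrays, and called where it differed by at least 2-fold. The SD of the difference between probes of the same gene was 0.26, 0.39, 0.37 and 0.27 log2 in these comparisons, in the same order, and is the error used below. It leaves out mice, sorts and labelling.

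The arrays had 45.2% to 53.2% of probes above background and no saturated spot. DMSO MEP stood apart, at a correlation of 0.973 to 0.976 with the other three arrays, against 0.979 to 0.991 among those, across 23013 probes. It is the only array of its group. Immediate early and heat shock genes are induced within minutes of stimulation or of cell handling. On DMSO MEP 15 of 20 measured genes of that list were at least 2-fold higher than on DMSO LSK and 0 lower. Fosb, for example, read 5.79 there against 3.00, 2.86 and 2.59 on DMSO LSK, JQ1 LSK and JQ1 MEP. The heat shock genes were mixed, with Hspa1a at 3.76 on DMSO MEP against 1.78 on DMSO LSK. Hspa8 read 9.19 against 9.63 on these arrays, and Dnajb1 6.1 against 5.92. As a check of the labels, the Sca-1 gene Ly6a read 4.49 and 4.28 on the LSK arrays and -0.32 and 0.22 on the MEP arrays, and 10 of 11 measured erythroid and megakaryocytic markers were at least 2-fold higher in MEP under either treatment. Of the LSK markers, fewer differed, with 3 of 12 at least 2-fold lower in MEP under DMSO and 6 of 11 under JQ1, and 1 higher in each. Ezh2 itself read 3.31 to 3.69 on all 4 arrays, and whether its probe lies in the deleted exons is not known here.

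Of the 10 genes, 8 were well above background on every array. Il1b was not on JQ1 LSK, and Cxcl2 was above background on DMSO MEP only. The plot of levels by array shows 3 kinds of profile. Ccl2 was far higher in LSK, Ccl17, Il6 and Il1b were higher in MEP, and in Ccl3, Ccl4, Ccl5, Cxcl10 and Tnf the highest and the lowest array lay within 2.15 log2, with JQ1 MEP lowest for all of these but Ccl5.

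**Figure D1:**
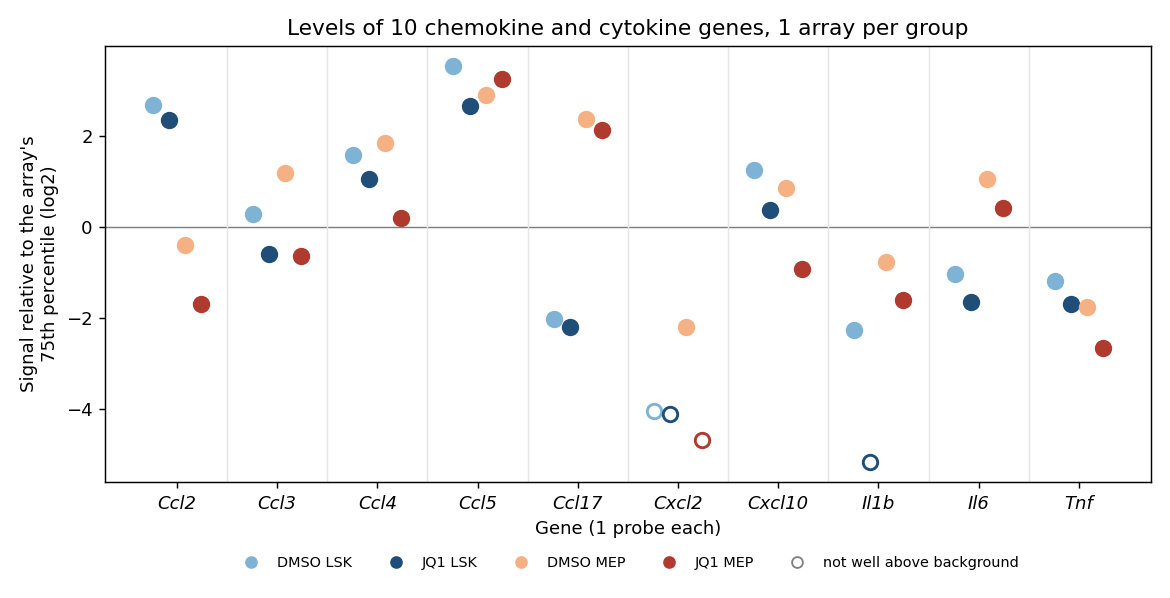
Levels of the 10 genes on the 4 arrays, as log2 signal relative to the array's 75th percentile, 1 point per array and no replicates, with open points where the probe was not well above background. Ccl17 reads 2.36 and 2.12 in MEP against -2.01 and -2.20 in LSK, and Ccl2 reads 2.66 and 2.35 in LSK against -0.39 and -1.69 in MEP.

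In MEP cells most of these genes were lower on the JQ1 array than on the DMSO array. Of 9 measured genes, 6 were at least 2-fold lower (Ccl3, Cxcl10, Ccl4, Ccl2, Tnf and Il1b), where 5.77% of all 12549 measured genes were, and 0 were 2-fold higher, against 0.98% of all genes. Their median difference was -1.24 log2. The background depends on the centring: 724 of all genes were lower and 123 higher when centred, and without centring 366 and 374 on the same scaling, 172 and 3039 scaled to the median probe, and 2200 and 35 scaled to E1A spike-in probes. All 9 lay below the median gene, Ccl5 only at -0.01, though Ccl5 read 0.03 with another choice of probe per gene, and without centring 0.33, 0.22 when scaled to ERCC spike-ins and 0.75 when scaled to the median probe, where Ccl17 read 0.18. Most are dim, and dim genes more often read lower in this comparison: of the genes below the median signal 9.44% were at least 2-fold lower, against 6 of the 7 members in that range. In sorted bulk cells, fewer cells of a type and less RNA per cell cannot be told apart.

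The macrophage inflammatory proteins Ccl3 and Ccl4 are both encoded on chromosome 11. Ccl3 had levels of 0.29 (DMSO) and -0.59 (JQ1) in LSK and 1.17 (DMSO) and -0.64 (JQ1) in MEP. DMSO MEP was the high value, and the JQ1 arrays read alike. The JQ1 difference in MEP was -2.14 log2, 4.42-fold lower, or 5.5 times the SD between probes, and 0.47% of measured genes read lower. Ccl4 followed the same order, with levels of 1.57 (DMSO) and 1.06 (JQ1) in LSK and 1.84 (DMSO) and 0.20 (JQ1) in MEP, and was 3.93-fold lower with JQ1 in MEP. Each rests on 1 spot per array, as do Ccl5, Ccl17, Cxcl2 and Cxcl10. For these 6 genes the measurement error rests on the scanner software alone.

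Cxcl10, an interferon-induced chemokine that binds Cxcr3, had levels of 1.24 (DMSO) and 0.36 (JQ1) in LSK and 0.85 (DMSO) and -0.92 (JQ1) in MEP. It was lower with JQ1 in both cell types, by 1.92-fold in LSK and 4.28-fold in MEP (-2.10 log2). Cxcl2, a neutrophil attractant, had a level of -2.19 on DMSO MEP and was not well above background on DMSO LSK (-4.03), JQ1 LSK (-4.09) or JQ1 MEP (-4.67). It was therefore at least 3.47-fold lower with JQ1 in MEP by a bound, taken against the larger of its own signal and the lowest signal of any probe above background on the dim array. Among the 1427 genes above background on only 1 of the 2 MEP arrays, 24.7% were lower by a bound of at least 2-fold, so such a bound is common.

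Ccl2, the main monocyte attractant, acting through Ccr2, was printed on the array in 10 replicate spots. Its level was 2.66 (DMSO) and 2.35 (JQ1) in LSK and -0.39 (DMSO) and -1.69 (JQ1) in MEP. Before scaling, its spots spanned signals of 1220 to 1430, 1130 to 1370, 224 to 269 and 56.8 to 85.0 on these arrays, so the spots of the MEP arrays did not overlap and those of the LSK arrays did. JQ1 minus DMSO was -1.64 log2 in MEP, 3.11-fold lower, and -0.37 in LSK, 1.4 times the SD between probes.

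Among the cytokines, Il1b, the pyrogen that inflammasome caspases release, had levels of -2.26 (DMSO) and -5.16 (JQ1, not well above background) in LSK and -0.77 (DMSO) and -1.61 (JQ1) in MEP. It was 2.27-fold lower with JQ1 in MEP (-1.18 log2) and at least 3.05-fold lower in LSK by a bound, where 27.8% of 1045 genes above background on 1 LSK array were lower by such a bound. Tnf, an early inducer of the other cytokines, had levels of -1.19 (DMSO) and -1.69 (JQ1) in LSK and -1.76 (DMSO) and -2.66 (JQ1) in MEP, and was 2.36-fold lower with JQ1 in MEP (-1.24 log2). That call turns on 1 spot of JQ1 MEP, which had a signal of 598 against 30.8 to 47.7 for the other 9 and carried the software's outlier mark, since keeping marked spots gives -0.86 log2. Without centring, Il1b and Tnf read -0.84 and -0.90, also short of 2-fold. Il6, which signals through Il6ra and Il6st, had levels of -1.03 (DMSO) and -1.64 (JQ1) in LSK and 1.04 (DMSO) and 0.42 (JQ1) in MEP, a JQ1 difference in MEP of -0.96 log2.

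**Figure D2:**
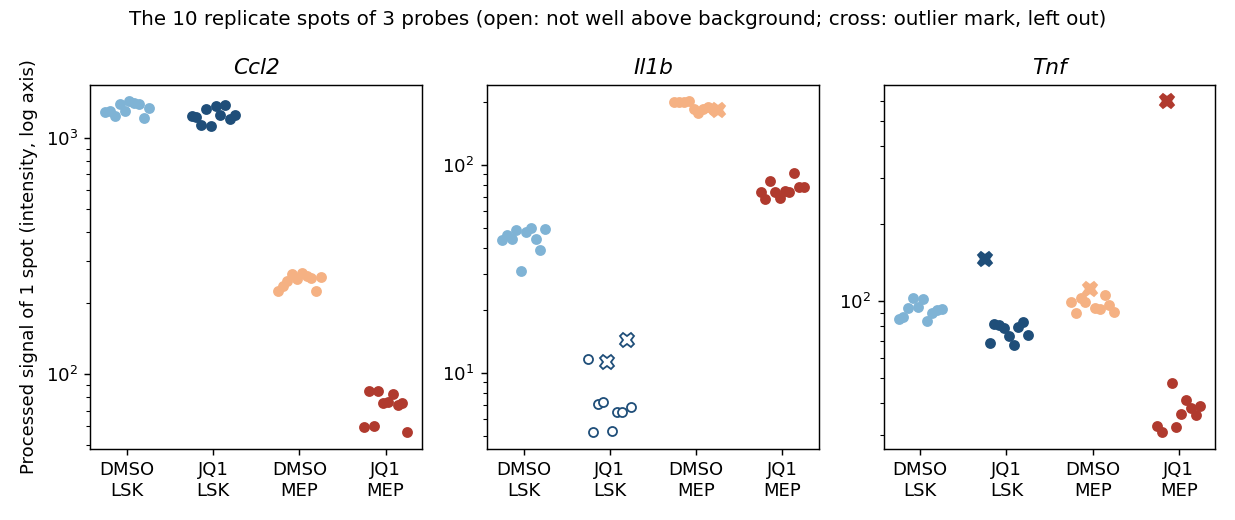
Processed signal (intensity, log axis) of the 10 replicate spots of the Ccl2, Il1b and Tnf probes on each array, with open points not well above background and crosses for spots with an outlier mark, which were left out. For Tnf on JQ1 MEP the marked spot at 598 lies apart from the other 9, and for Il1b no spot was above background on JQ1 LSK.

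With Il6, Ccl5 and Ccl17 were the measured genes within 2-fold in MEP. Ccl5, made by lymphocytes and platelets as well as myeloid cells, had levels of 3.53 (DMSO) and 2.65 (JQ1) in LSK and 2.90 (DMSO) and 3.23 (JQ1) in MEP, with a JQ1 difference of -0.01 log2 in MEP and -0.94 in LSK. Ccl17, a ligand of Ccr4 made by dendritic cells, had levels of -2.01 (DMSO) and -2.20 (JQ1) in LSK and 2.36 (DMSO) and 2.12 (JQ1) in MEP, with a JQ1 difference of -0.57 in MEP and -0.25 in LSK.

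The genes lower with JQ1 in MEP are classical targets of NF-kappaB, AP-1 and interferon signalling, so their upstream sequence was searched for such motifs. RefSeq promoter windows (GRCm38.p6) were at hand for 7 of the 10 genes, and the 250 bases before the start were searched on both strands. Those of Ccl3, Cxcl10 and Tnf, the CC chemokine, CXC chemokine and cytokine with the lowest measured JQ1 difference in MEP among genes with a window (Cxcl2, known by a bound only, was not ranked), are shown 5′ to 3′ on the gene's strand. Capitals mark matches to the motifs, and positions count back from the RefSeq start.
Ccl3, chr11:83649379-83649628, minus strand: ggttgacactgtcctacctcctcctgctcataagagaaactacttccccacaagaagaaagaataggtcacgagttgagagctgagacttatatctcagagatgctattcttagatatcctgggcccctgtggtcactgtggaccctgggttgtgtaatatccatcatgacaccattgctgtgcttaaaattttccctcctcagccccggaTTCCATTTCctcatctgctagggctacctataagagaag
Cxcl10, chr5:92348890-92349139, minus strand: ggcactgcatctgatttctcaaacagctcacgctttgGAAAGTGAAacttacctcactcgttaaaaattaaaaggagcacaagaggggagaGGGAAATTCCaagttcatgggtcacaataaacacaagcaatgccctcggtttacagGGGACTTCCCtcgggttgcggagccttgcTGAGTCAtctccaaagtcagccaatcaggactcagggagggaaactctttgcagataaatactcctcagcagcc
Tnf, chr17:35202008-35202257, minus strand: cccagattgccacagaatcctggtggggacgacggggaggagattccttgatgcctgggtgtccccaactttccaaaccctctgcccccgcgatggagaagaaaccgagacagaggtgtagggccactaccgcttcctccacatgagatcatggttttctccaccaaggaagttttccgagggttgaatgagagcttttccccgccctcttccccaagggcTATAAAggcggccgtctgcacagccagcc
The kappaB consensus was found in 3 of 7 windows (Cxcl2, Cxcl10 and Il6), and in 3.9% of all 32851 windows. The kappaB and interferon patterns were replaced after matches to a first set were seen, so their counts are descriptions only. Of the genes with a window that were measured and called lower with JQ1 in MEP, only Cxcl10 held the kappaB consensus. Cxcl10 holds it at -159 and -103, and Cxcl2 at -97 and -96, where a single run is counted on overlapping letters. The AP-1 motif TGANTCA was found in Cxcl10 (at -74) and Il6, and in 6.75% of all windows. The core of the interferon-stimulated response element, GAAANNGAA, was found in Cxcl10 (at -213) and Ccl3 (at -39, on the other strand), and in 7.13% of all windows. The TATA box TATAAA was found in Tnf (at -29) and Il1b (at -31), and in 12.4% of all windows. Ccl17 held none of these letters in its window. Apart from the Cxcl2 pair, the matches did not overlap, and factor binding was not measured.

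In LSK cells the JQ1 differences were smaller for 7 of the 8 measured genes, Ccl5 being the exception. Il1b, not well above background on JQ1 LSK, is not among the 8. It was at least 3.05-fold lower in LSK by a bound, against 2.27-fold lower in MEP. A bound of at least 2-fold lower was seen for 27.8% of genes above background on 1 LSK array. All 8 measured genes lay below the median gene, from -0.25 to -0.94 log2 with a median of -0.63, although with scaling to E1A spike-in probes and no centring 4 of the 8 lay below 0 and the median was 0.01. No gene of the 8 was at least 2-fold lower, where 3.22% of 12328 measured genes were, and 0 were 2-fold higher, where 0.543% were. Ccl3, Ccl5 and Cxcl10 each read -0.94 log2, 1.92-fold lower and 3.6 to 3.7 times the SD between probes, and 3.53% to 3.57% of measured genes read lower. Il6 read -0.68, Ccl4 -0.58 and Tnf -0.56, and Ccl2 (-0.37) and Ccl17 (-0.25) lay within 1.4 times that SD. The comparison uses neither MEP array.

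**Figure D3:**
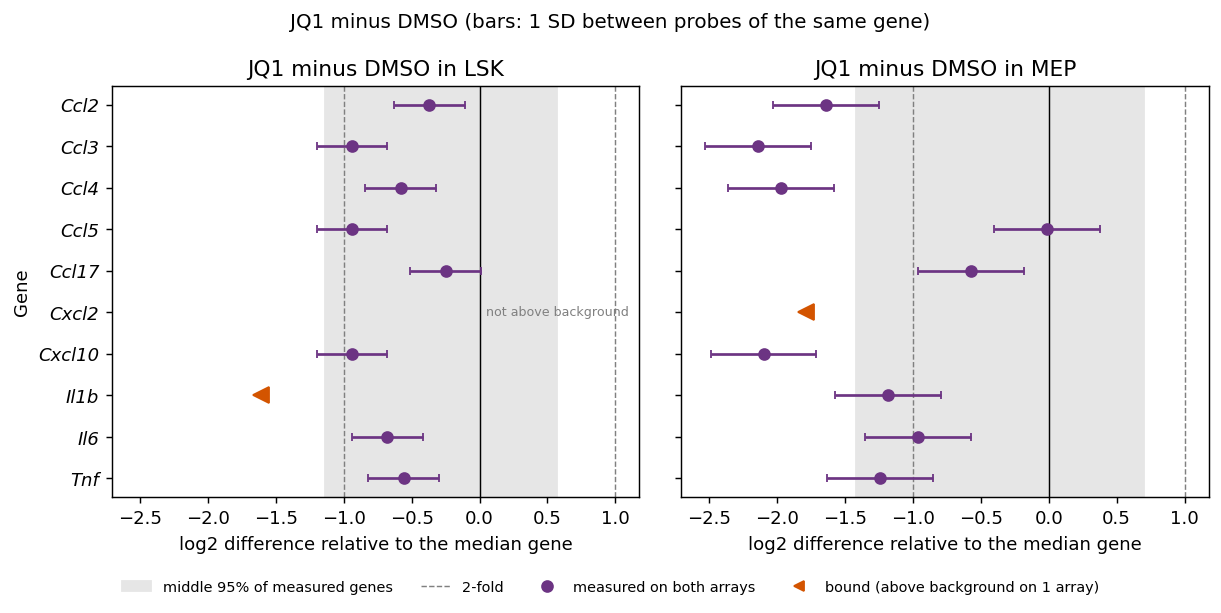
JQ1 minus DMSO for each of the 10 genes in LSK (left) and MEP (right), as log2 difference relative to the median gene, with bars of 1 SD between probes of the same gene, triangles for bounds, dashed lines at 2-fold and a grey band for the middle 95% of measured genes. In MEP 6 measured genes lie beyond 2-fold lower, and Cxcl2 does by a bound. In LSK 0 of the measured genes do, and Il1b does by a bound. With E1A spike-in scaling and no centring the LSK median is 0.01.

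Set side by side, 8 genes were measured in both cell types, and 7 of them had a lower JQ1 difference in MEP than in LSK. Il1b, not measured in LSK, was at least 3.05-fold lower there by a bound and 2.27-fold lower in MEP. For the 8 genes the difference of the 2 differences had a median of -0.92 log2. It was -1.40 for Ccl4, -1.27 for Ccl2, -1.20 for Ccl3 and -1.16 for Cxcl10. These 4 were 2-fold or more below the LSK difference, where 5.83% of 12016 genes were. Ccl5 went the other way at 0.94, and 0 were 2-fold or more above, where 3.37% of genes were. Every one of the values for these 8 genes takes in DMSO MEP, the array that stood apart, and no other array of its group was analysed here. On that array the immediate early list was high as well, and with JQ1 in MEP 17 of its 20 measured genes were at least 2-fold lower, with a median of -1.70. Its part in the result was not tested.

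Between cell types the most marked differences were those of Ccl17 and Ccl2. Ccl17 was 24.0-fold higher in MEP than in LSK under DMSO (4.59 log2), with 4 of 12407 measured genes higher still, and 19.1-fold higher under JQ1 (4.25 log2). Ccl2 was 7.12-fold lower in MEP under DMSO (-2.83 log2) and 17.3-fold lower under JQ1 (-4.11 log2), where 7 of 12262 measured genes read lower. Both differences were seen with either pair of arrays, so they do not rest on DMSO MEP. Il6 was 4.87-fold higher in MEP under DMSO and 3.96-fold higher under JQ1, and Il1b 3.28-fold higher and at least 4.36-fold higher by a bound. Of 1244 genes above background on 1 of the JQ1 arrays, 22.9% were higher in MEP by a bound of at least 2-fold.

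Of the 9 genes measured under DMSO, 4 were at least 2-fold higher in MEP (Ccl17, Il6, Il1b and Ccl3), where 5.68% of all measured genes were, and 1 lower (Ccl2), where 4.32% were. Cxcl2 was at least 2.66-fold higher by a bound, as 17.3% of 1644 genes above background on 1 of these arrays were higher by at least 2-fold. Under JQ1, 2 of 8 measured genes were at least 2-fold higher (Ccl17 and Il6, background 3.94%) and 3 lower (Ccl2, Cxcl10 and Tnf, background 4.01%). Cxcl10 read -1.35 and Tnf -1.05 there, against -0.17 and -0.35 under DMSO. The Tnf call under JQ1 held in 7 of the 13 alternatives that kept the 2-fold rule, with values up to -0.44. Without centring Tnf read -0.98. On each JQ1 array 1 Tnf spot with an outlier mark was left out. Ccl3 read 1.09 under DMSO and -0.12 under JQ1. The comparisons under DMSO and JQ1 and those of JQ1 with DMSO share arrays, so they are not separate evidence for a member.

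**Figure D4:**
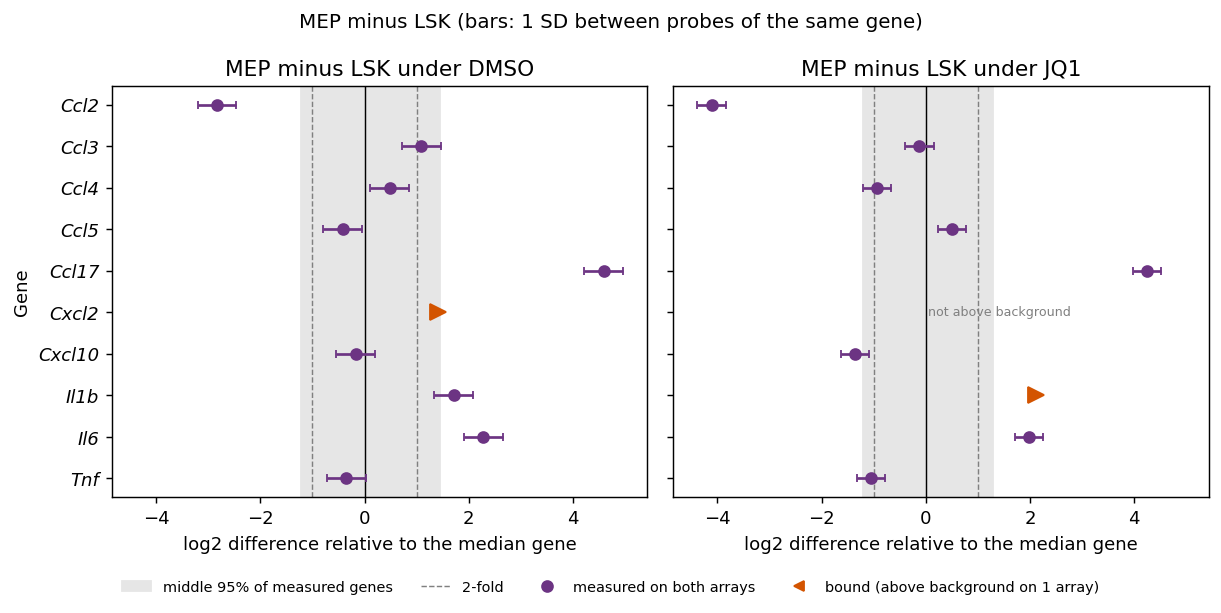
MEP minus LSK for each of the 10 genes under DMSO (left) and JQ1 (right), as log2 difference relative to the median gene, with bars of 1 SD between probes of the same gene, triangles for bounds and a grey band for the middle 95% of measured genes. Ccl17 lies at 4.59 and 4.25 and Ccl2 at -2.83 and -4.11, outside the band on either side.

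The values of other genes of the pathway depend on the centring in the same way: without it, every JQ1 difference in MEP reads 0.34 log2 higher, or 0.75 higher if also scaled to the median probe and 0.22 higher if scaled to ERCC spike-ins, and in LSK 0.06, 0.26 and 0.4 higher. Uncentred and scaled to E1A probes, every value in LSK reads 0.63 higher, and the shift in MEP is -0.52. Many related chemokines were not detected. Of 14 other CC chemokines on the array, 7 were above background on no array, among them Ccl20 and Ccl22, and of 14 other CXC, C and CX3C chemokines 7 likewise, among them Cxcl1 and Cxcl3, the close relatives of Cxcl2. With JQ1 in MEP, 1 of 4 measured CC chemokines was at least 2-fold lower, the myeloid chemokine Ccl6 (-1.08), and 1 of 6 of the others, the lymphocyte attractant Xcl1 (-2.35). In LSK 3 of 5 of the others were lower, Xcl1 (-2.85), platelet factor 4 Pf4 (-1.24) and the interferon-induced Cxcl9 (-1.22), while the CC chemokine Ccl8 was higher (1.26). In MEP Ccl8 was at least 3.13-fold lower by a bound, and 0 of these CC chemokines were higher by one. Of all genes above background on 1 MEP array, 24.7% were lower by a bound of at least 2-fold. Of 12 other cytokines measured in each JQ1 comparison, 0 were 2-fold lower in either, and 1 was higher in LSK, oncostatin M Osm (1.25), with medians of 0.01 in LSK and -0.21 in MEP. The lists were chosen with earlier results of these data known.

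Receptors for these ligands were detected in both cell types, with 14 to 16 of 18 above background on each array. With JQ1 in LSK, 1 of 15 measured receptors was at least 2-fold lower, Cxcr3, the receptor of Cxcl10 (-1.90), while Cxcr1 was higher (1.05). In MEP the median of 13 measured receptors was -0.49, against -0.30 in LSK. The tumour necrosis factor receptor Tnfrsf1a read 0.00 in LSK and -0.01 in MEP, and Il6ra -0.54 and -0.55. Under DMSO 8 of 15 receptors were at least 2-fold lower in MEP than in LSK, among them Cxcr1 (-1.82), Ccr3 (-1.75) and Ccr2 (-1.41), and 0 were higher. Of all measured genes 4.32% were lower and 5.68% higher. Under JQ1, a comparison without DMSO MEP, 3 of 13 receptors were lower and 1 was higher, where 4.01% and 3.94% of all genes were.

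Several NF-kappaB feedback genes, which the pathway itself induces, were lower with JQ1 in MEP. Of 15 measured genes 5 were at least 2-fold lower, led by the deubiquitinating enzyme Tnfaip3 (-3.00), Nfkbiz (-2.16), Nfkbid (-1.78) and the inhibitor Nfkbia (-1.1), whereas the subunit Rela read 0.13. In LSK only Traf1 (-1.30) of 15 was, and Tnfaip3, Nfkbiz and Nfkbia read -0.30, -0.31 and -0.36. Tnfaip3 stood high on DMSO MEP, at 4.08 against 1.34 on DMSO LSK, 1.1 on JQ1 LSK and 1.42 on JQ1 MEP. Of 21 measured sensors, kinases and inducing factors 1 was at least 2-fold lower in MEP, the interferon regulatory factor Irf1 (-1.01), and 0 of 22 in LSK. Among 11 factors of cytokine mRNA decay and stability, the decay factors Zc3h12a (-1.30), Zfp36 (-1.25) and Zfp36l1 (-1.07) were lower in MEP and Zc3h12c (-1.64) in LSK. Of 5 measured processing enzymes, such as Casp1 (-0.06 in LSK, -0.61 in MEP), 0 differed by 2-fold.

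**Figure D5:**
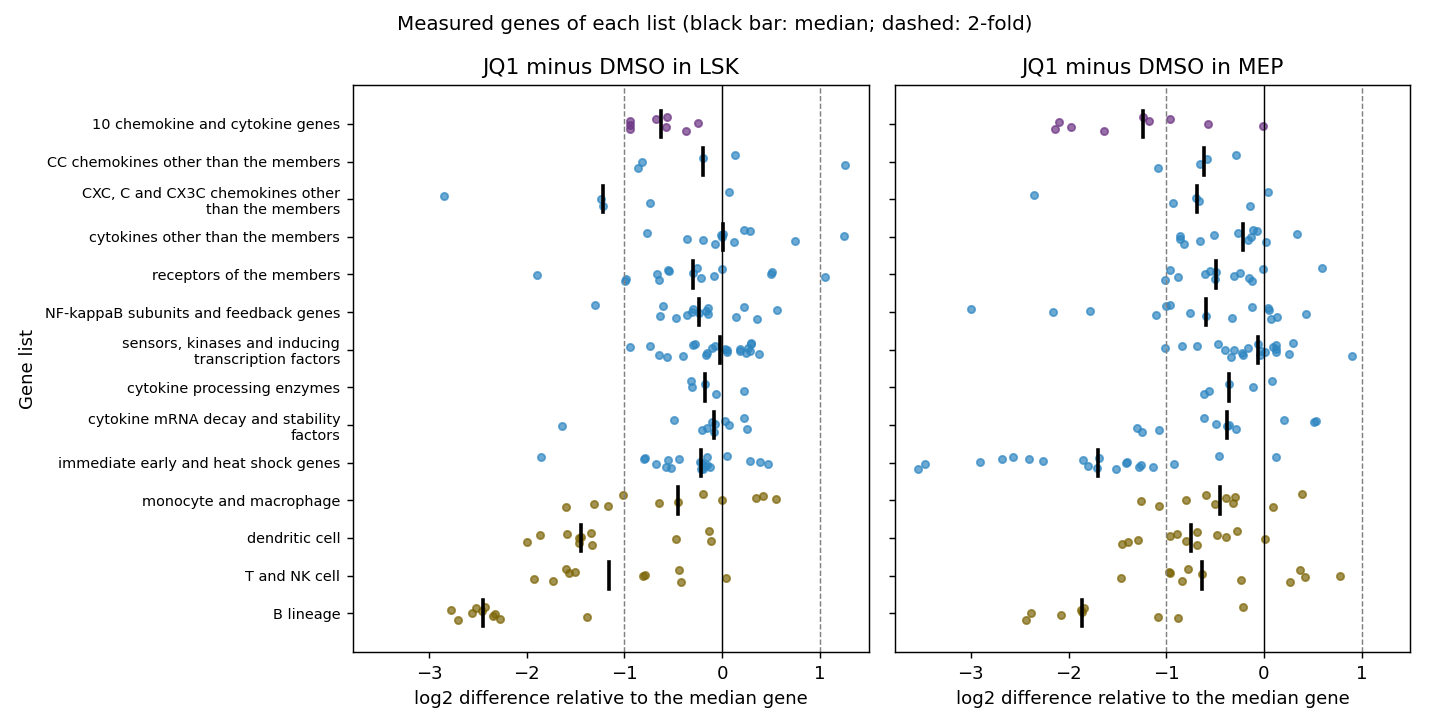
JQ1 minus DMSO in LSK (left) and MEP (right) for the measured genes of each list, as log2 difference relative to the median gene, with a black bar at each list's median and dashed lines at 2-fold. The 10 chemokine and cytokine genes have medians of -0.63 and -1.24, the immediate early list -0.21 and -1.70 and the B lineage list -2.44 and -1.86; with E1A spike-in scaling and no centring the median of the first is 0.01 in LSK.

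Markers of mature cells that can make these ligands also differed with JQ1, not all in the same direction. Summed levels below compare the same probes across arrays, and bright probes carry them. Of 15 monocyte and macrophage markers 11 were above background on DMSO LSK, 13 on JQ1 LSK, and 11 and 10 on the MEP arrays of DMSO and JQ1. In that order their summed level, in units of the 75th percentile, was 97, 58.2, 53.7 and 45.5, and Mrc1 was below background throughout. With JQ1, 4 of 11 measured were at least 2-fold lower in LSK and 2 of 10 in MEP, with a median of -0.45 in each and 0 higher. In LSK Csf1r read -1.60 and Ctss -1.02, while Itgam read 0.00, C1qa 0.55 and C1qb 0.35, and C1qc was at least 2.44-fold higher by a bound. Dendritic cell markers, 11 to 13 of 13 above background, summed to 845, 508, 739 and 507, and 8 of 11 were at least 2-fold lower with JQ1 in LSK and 3 of 12 in MEP. T and NK cell markers summed to 83.5, 78.8, 71.9 and 108, with 10 to 13 of 13 above background, a sum carried by Nkg7 (0.04 with JQ1 in LSK). Of them 5 of 10 measured were at least 2-fold lower with JQ1 in LSK, with a median of -1.16, and 1 of 11 in MEP, with a median of -0.63. B lineage markers, 9 or 10 of 11 above background, summed to 267, 56.7, 87.9 and 34.6, with only Pax5 below background on every array, and 10 of 10 measured were lower in LSK and 7 of 9 in MEP. Neutrophil markers (8 to 11 of 13 above background) summed to 1260, 823, 1130 and 1700, with Mmp9 and Cd177 below background throughout, a sum carried by Mpo (-0.85 with JQ1 in LSK). In LSK 2 of 7 measured were at least 2-fold higher with JQ1, Camp (1.91) and S100a9 (1.47), and 2 lower, Elane (-1.09) and Lcn2 (-1.05), and Ltf and Ngp were at least 3.86-fold and 3.46-fold higher and Mmp8 at least 3.53-fold lower by bounds. With JQ1 in MEP 1 of 9 measured neutrophil markers was at least 2-fold higher and 1 lower, with a median of 0.41. Mast cell and basophil markers, all 10 above background on every array, summed to 400, 344, 52.2 and 66.3. With JQ1, 0 of these 10 differed by 2-fold in LSK (median -0.33), and in MEP 1 was higher and 1 lower (median 0.2). Endothelial and stromal markers, 7 or 8 of 10 above background, summed to 50.6, 38.5, 24.5 and 38.2, with Cdh5 below background throughout. Some of these genes are also expressed by progenitors. The part of such cells in the chemokine and cytokine differences was not tested.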

How the data were processed

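Per the labels' protocols, total RNA (20 ng) of sorted cells was amplified and labelled with Cy3 alongside spike-in controls. The scans were read with Feature Extraction 10.7.1.1 under the protocol GE1_107_Sep09, per the file headers, which also name mm9 as the build. The deposited scanner output holds the processed signal of each spot, its error and the median signal and background as intensities, with marks for background and outliers. The authors' deposited table holds a linear ratio whose 75th percentile was 1.00 on every array, and for values above 1 it was within 1% of the processed signal divided by a constant per array.

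Here the log2 processed signals were averaged over a probe's spots without an outlier mark and set relative to the 75th percentile of its array (a signal of 210 and 245 for LSK after DMSO and JQ1, and 327 and 233 for MEP). A probe counted as above background where most of those spots did. Accessions gave 28026 probes (50.3%) a RefSeq symbol (GRCm38.p6), and the brightest probe stood for a gene. Genes are given by symbol and, because builds differ, array positions are not printed. Differences were computed for every gene of the table and centred on their median. The calculation was tested on simulated data. The 10 genes, 18 gene lists, the motifs and the rule for named genes were chosen with earlier results of these data known. The rule named all 10 genes with every probe, up to 4 genes past 2-fold on either side of each list plus Nfkbia, Tnfaip3, Nfkbiz, Rela and Irf1, the 3 brightest markers of a cell type, and the 6 genes nearest in profile. Alternatives changed scaling, centring, normalization (limma 3.58.1 in R 4.3.3), background, probe choice, filter and fold, 12 planned and 4 added after the data were seen. The number of arrays limits the precision. The kappaB and interferon motif patterns were replaced after matches to a first set were seen. Some genes of the lists are not reported here.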

Additional observations from a re-analysis of the deposited data

Results flagged for a closer look

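For 3 genes the MEP array was above the LSK array under one treatment and below it under the other, relative to the median gene, with 1 array on each side. Ccl3 read 1.09 log2 under DMSO and -0.12 under JQ1. Ccl4 read 0.48 under DMSO and -0.93 under JQ1. Ccl5 went the opposite way, at -0.42 under DMSO and 0.50 under JQ1. These differences were not tested, and of the 6 values the one for Ccl3 under JQ1 and those for Ccl4 and Ccl5 under DMSO lie within 1.3 times the SD between probes of a gene. No group had enough arrays for a search for single arrays far from the others.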

How the results depend on the processing

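No paired analysis was possible because each group has 1 array and the groups share only replicate number 1. No array could be left out for the same reason. The planned normexp correction was not run as written, because the scanner columns used here give a median and no mean signal per spot, and it was run on the median signal instead. Of 185 recomputed values over 13 results and 15 alternatives, 169 stayed within 1.5 times the count or within the SD between probes of a gene. Each gene has 1 probe, so choices between probes acted only through the median gene. The count of 6 genes at least 2-fold lower with JQ1 in MEP became 4 without centring, where 2.92% of all genes were. It was also 4 with centring kept under quantile normalization (3.84% of all genes) and under normexp (2.47%). The count was 8 with E1A spike-in scaling and no centring (17.5%) and without the background filter (10.9%). Without centring when also scaled to the median probe it was 3 (1.37%). There the 9 measured genes had a median of -0.49 in place of -1.24. The median of MEP minus LSK of the JQ1 difference was there -0.43 in place of -0.92. With E1A spike-in scaling and no centring the medians were 0.01 (JQ1 in LSK, reversed from -0.63), -1.77 (JQ1 in MEP), 1.39 (MEP minus LSK under DMSO, from 0.48) and -2.08 (MEP minus LSK of the JQ1 difference). Counts over all genes moved too: with JQ1 in LSK 397 were lower and 67 higher, against 356 and 79 without centring, and, also uncentred, 256 and 153 scaled to the median probe and 135 and 843 scaled to E1A probes. A scaling constant moves no centred value. Uncentred scaling to ERCC-named controls, of which only 2 probes were above background, gave -0.22 for JQ1 in LSK. Without the background filter 1 gene was 2-fold lower with JQ1 in LSK, Il1b, where 6.03% of all genes were. The median of MEP minus LSK under DMSO was then 0.93. Normexp gave medians of -0.81 (JQ1 in MEP) and -0.23 (MEP minus LSK under JQ1, from -0.52). At 1.5-fold 4 genes were lower with JQ1 in LSK, where 7.53% of all genes were. At 3-fold 1 was lower in MEP than in LSK under JQ1, where 1.07% of all genes were. Without Ccl17, 1 gene was higher in MEP under JQ1 and the median there was -0.93. Ccl3, Ccl4 and Cxcl10 were at least 2-fold lower with JQ1 in MEP in all 13 alternatives that kept the 2-fold rule, Ccl2 in 12, Tnf in 8 of 13 and Il1b in 7 of 12. Between cell types Ccl2 and Il6 were called in those 13 under both treatments, and Ccl17 in the 12 that include it. Not all alternatives are separate checks, since leaving out Ccl17 changes no other gene and choices between probes acted only through the median gene.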

Other observations

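Among the other cytokines, 3 in LSK and 1 in MEP were lower with JQ1 by a bound, as 27.8% and 24.7% of all genes above background on 1 of the arrays were. In LSK 1 was higher by a bound, Il1a (at least 2.24-fold), as 11.3% of such genes were, and in MEP 0 were. Lymphotoxin alpha Lta was at least 7.74-fold lower in LSK and at least 4.01-fold lower in MEP, and in LSK the granulocyte factor Csf3 was at least 6.87-fold and the death ligand Fasl at least 2.42-fold lower. The related Ltb (-0.77 in LSK, -0.27 in MEP) and Tnfsf14 (0.22, -0.11) were measured and within 2-fold. Platelet chemokines marked the cell types, with Pf4 higher in MEP than in LSK by 3.89 log2 under DMSO and 4.46 under JQ1, and Ppbp by 1.19 under DMSO. Cytokines more abundant in LSK than in MEP under both treatments were Il18 (-1.16 under DMSO, -1.67 under JQ1), Il12a (-1.31, -1.43), Tnfsf10 (-1.14, -1.5) and Il16 (-1.09, -1.06).

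The typical profile of the 8 genes above background on every array, the median of their levels less each gene's own mean, was 0.43 and -0.27 in LSK after DMSO and JQ1, and 0.57 and -0.77 in MEP. Ccl4 (Euclidean distance 0.27 log2 over the 4 arrays), Tnf (0.68) and Ccl3 (0.69) lay nearest to it among the 8, and Ccl17 (4.61) and Ccl2 (3.37) farthest. Among the other genes of 12016 above background on all arrays, the nearest were Camk1g (0.17), Apex2 (0.18), Lefty2 (0.19), Kcna3 (0.19), Gpr6 (0.21) and Btg1c (0.21). A distance over 4 arrays is a description of these arrays only.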
